A study of Mus musculus with 6 samples.

Results

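Neutrophil granule genes were followed on microarrays of medullary thymic epithelial cells, the cells of the thymic medulla that show developing T cells a wide range of the body's proteins. The genes were 6 of the secondary granule (Ltf, Ngp, Camp, Pglyrp1, Lcn2 and Chil3) and 3 of the primary granule (Mpo, Elane and Prtn3). Every probe set whose annotation named 1 of these genes and no other was taken and kept apart, which gave 12 probe sets for 9 of 9 genes, out of 8251 genes with such a probe set on the array. The genes were chosen by their signal differences between the genotypes on these same arrays, so those differences are given as a description. Where it is counted how many passed the threshold that was applied to all probe sets, the share over all probe sets stands beside the count and nothing is read from it.

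There were 3 arrays a genotype. Each carried RNA from the pooled thymi of 5 mice of both sexes, 3 to 5 weeks old and of the mixed B6/129 F2 background, so that 15 mice stood behind each genotype. In the Aire-/- mice both copies of Aire, a transcriptional regulator of the medulla, were disrupted, and the WT mice carried the intact gene. All 6 pools were sorted in the same way for cells negative for CD45, a marker of blood cells, positive for the epithelial antigen G8.8, intermediate for CDR1 and high for B7.1. The RNA was amplified in 2 rounds with T7 polymerase, and signals per probe set are in arbitrary units after quantile normalization.

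Neutrophils fill their granules in stages while they mature in the bone marrow. Myeloperoxidase and the serine proteases of the primary granule are made first, in promyelocytes, and lactoferrin, cathelicidin and the other proteins of the secondary granule are made later, in myelocytes and metamyelocytes, under transcription factors of the C/EBP family. Several secondary granule genes, Lcn2 among them, are also transcribed by epithelia under inflammatory signals.

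The Aire probe set read 202, 297 and 211 on the Aire-/- arrays against 59.9, 96.4 and 138 on the WT arrays, a log2 difference of 1.33 (SE 0.35; limma adjusted p = 0.0918, or 0.0191 blocked on the replicate number). The sources used here do not say whether it lies in the disrupted part of the gene, so it did not check the genotype labels. Before normalization, the 2% trimmed mean of an array was 19.6 to 26.9. The ratio of 3' to 5' actin signal, a measure of bias towards the 3' end, was 4.38, 5.75 and 13.4 on the Aire-/- arrays and 5.42, 95.8 and 13.8 on the WT arrays, so WT array 2 stood apart. Of the markers of medullary epithelium, 0 passed in limma, and their directions differed. Epcam, the antigen of G8.8, read 89.2 in Aire-/- and 197 in WT cells (adjusted p = 0.118, or 0.0315 with the block). Cd80, which encodes the sort marker B7.1, read 11.1 in Aire-/- and 4.19 in WT cells on 93905_at, with all WT values dim (adjusted p = 0.152), and 14.5 in Aire-/- and 8.74 in WT cells on 93906_s_at (adjusted p = 0.482). Cd86, a related costimulatory molecule, read 25.6 in Aire-/- and 11.4 in WT cells (adjusted p = 0.153), and H2-Ab1, of MHC class II, 1130 in Aire-/- and 653 in WT cells (adjusted p = 0.168). Krt5 and Krt14 were dim on all 6 arrays, that is, at or under 5.53, the 40th percentile of all signals. Fewer cells of a type and less RNA per cell cannot be told apart in pooled samples like these.

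The promoter sequences of the 6 secondary granule genes are shown because the genes parted into 4 with lower signal on the Aire-/- arrays and 2 whose groups overlapped. Each is the 250 bases before the RefSeq gene start in the assembly GRCm38.p6, written on the strand of the gene. Capitals mark GCAAT, a half-site bound by C/EBP factors, and GAGGAA, a site of the type bound by PU.1, a master regulator of myeloid cells, or their reverse complements ATTGC and TTCCTC. No marked motif overlaps another.
Ltf chr9:111019042-111019291 (plus strand): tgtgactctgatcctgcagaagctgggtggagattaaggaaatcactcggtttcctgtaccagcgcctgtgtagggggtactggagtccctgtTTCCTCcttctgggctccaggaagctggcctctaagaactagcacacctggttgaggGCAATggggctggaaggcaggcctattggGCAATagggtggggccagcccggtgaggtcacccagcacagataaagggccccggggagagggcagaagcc
Ngp chr9:110419558-110419807 (plus strand): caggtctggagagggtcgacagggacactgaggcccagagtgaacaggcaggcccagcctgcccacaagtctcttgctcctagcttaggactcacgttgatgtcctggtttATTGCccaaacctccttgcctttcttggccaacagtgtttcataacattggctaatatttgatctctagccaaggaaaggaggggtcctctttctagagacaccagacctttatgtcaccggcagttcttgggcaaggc
Camp chr9:109849457-109849706 (minus strand): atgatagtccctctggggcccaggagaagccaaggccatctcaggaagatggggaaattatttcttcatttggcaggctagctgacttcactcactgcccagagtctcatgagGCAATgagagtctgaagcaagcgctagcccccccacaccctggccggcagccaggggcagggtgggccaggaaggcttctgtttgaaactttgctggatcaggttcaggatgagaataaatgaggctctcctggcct
Pglyrp1 chr7:18884440-18884689 (plus strand): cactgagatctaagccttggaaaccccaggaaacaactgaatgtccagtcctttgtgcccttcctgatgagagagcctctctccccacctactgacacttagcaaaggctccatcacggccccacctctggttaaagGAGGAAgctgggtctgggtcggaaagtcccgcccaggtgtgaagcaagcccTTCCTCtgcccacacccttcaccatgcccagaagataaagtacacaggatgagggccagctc
Lcn2 chr2:32387740-32387989 (minus strand): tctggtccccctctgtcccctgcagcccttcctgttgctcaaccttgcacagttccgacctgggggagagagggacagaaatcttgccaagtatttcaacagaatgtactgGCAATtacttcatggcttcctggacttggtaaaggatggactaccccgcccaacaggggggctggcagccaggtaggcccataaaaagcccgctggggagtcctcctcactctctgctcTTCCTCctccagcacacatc
Chil3 chr3:106167565-106167814 (minus strand): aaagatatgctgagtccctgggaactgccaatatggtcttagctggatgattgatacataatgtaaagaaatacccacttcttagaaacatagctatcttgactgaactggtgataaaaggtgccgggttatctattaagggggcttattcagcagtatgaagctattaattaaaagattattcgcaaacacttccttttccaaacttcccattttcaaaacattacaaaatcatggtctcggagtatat
GCAAT occurred in the windows of Ltf, Ngp, Camp and Lcn2, and in 23.1% of all 32851 RefSeq promoter windows of this length, counting both strands. GAGGAA occurred in those of Ltf, Pglyrp1 and Lcn2, and in 23.3% of all windows. Ltf held GCAAT at 100 and 71 bases before its start, Ngp and Lcn2 at 139 and Camp at 137. The window of Chil3 held neither motif. TGTGGT, a site of Runx factors present in 14.0% of windows, was found in none of the 9 genes. Of the primary granule genes, Mpo and Elane held both GCAAT and GAGGAA, and Prtn3 held GAGGAA alone. These matches describe letters in a window and show no binding.

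Ltf encodes lactoferrin, the iron-binding protein of the secondary granule. Its probe set read 3.72, 0.667 and 0.567 on the Aire-/- arrays against 34.9, 21.4 and 20.5 on the WT arrays. All Aire-/- values lay below all WT values, and below the dim limit of 5.53. The signal was at least 4.49-fold lower in Aire-/- cells, taking the limit in place of the dim values. With signals under a floor of 1.8 raised to it, the log2 difference was -3.44, and -3.79 to -3.22 with each array left out in turn.

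Ngp, neutrophilic granule protein, is a member of the cystatin superfamily stored in the same granule. It read 1.68, 2.07 and 5.02 on the Aire-/- arrays against 17.2, 32.5 and 29.1 on the WT arrays. The groups lay apart and the Aire-/- values were again all dim, so that the signal was at least 4.59-fold lower in Aire-/- cells. The log2 difference was -3.26, within -3.69 to -2.97 when 1 array was left out.

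Camp encodes the precursor of cathelicidin, an antimicrobial peptide. Its signals were 20.9, 18.8 and 25 on the Aire-/- arrays and 60.9, 168 and 85.3 on the WT arrays. Here every array of both genotypes lay above the dim limit, and the highest Aire-/- value was below the lowest WT value. The geometric means were 21.4 in Aire-/- and 95.5 in WT cells (SD 0.21 and 0.75 on the log2 scale, n = 3 each), which is 4.46-fold lower in Aire-/- cells (log2 difference -2.16). WT array 2, the array with the high 3' to 5' ratio, held the highest Camp value, and without both arrays numbered 2 the log2 difference was -1.67.

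Pglyrp1 encodes a peptidoglycan recognition protein that binds bacterial cell walls, and was measured by a pair of probe sets. Probe set 162475_f_at read 9.42, 8.03 and 11.2 on the Aire-/- arrays against 33.3, 37.2 and 32.8 on the WT arrays. Probe set 104099_at read 12.8, 10.6 and 11.6 on the Aire-/- arrays against 29.5, 18.6 and 20.1 on the WT arrays. On both the groups lay apart in the same direction, but the sizes differed. Aire-/- cells were 3.63-fold lower on the first (log2 difference -1.86; SD 0.24 in Aire-/- and 0.1 in WT) and 1.91-fold lower on the second (log2 difference -0.93; SD 0.14 in Aire-/- and 0.36 in WT).

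Lcn2 encodes lipocalin 2, which binds bacterial siderophores and is also made by epithelial cells. Probe set 160564_at read 27.8, 16.9 and 13.5 on the Aire-/- arrays against 35.5, 11.3 and 25.8 on the WT arrays. The groups overlapped, with the lowest of all 6 values on WT array 2 and Aire-/- lower within numbers 1 and 3 alone, and the log2 difference of -0.24 was 0.11 without WT array 1, -0.73 without WT array 2 and -0.01 without Aire-/- array 3. Probe set 161684_r_at read 7.73, 6.2 and 3.2 on the Aire-/- arrays against 7.73, 8.62 and 5.87 on the WT arrays. These groups overlapped too, and the log2 difference of -0.45 was -0.08 without Aire-/- array 3 and -0.71 without Aire-/- array 1.

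Chil3, also known as Ym1, encodes a chitinase-like lectin of neutrophils and macrophages. It read 71.5, 35.5 and 35.6 on the Aire-/- arrays against 38.6, 23.7 and 37.2 on the WT arrays. It was the sole secondary granule gene with the higher mean in Aire-/- cells, but the groups overlapped, and it was higher within numbers 1 and 2 alone. The log2 difference of 0.47 rested in part on Aire-/- array 1, and was 0.13 without it and 0.25 without WT array 2.

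**Figure D1:**
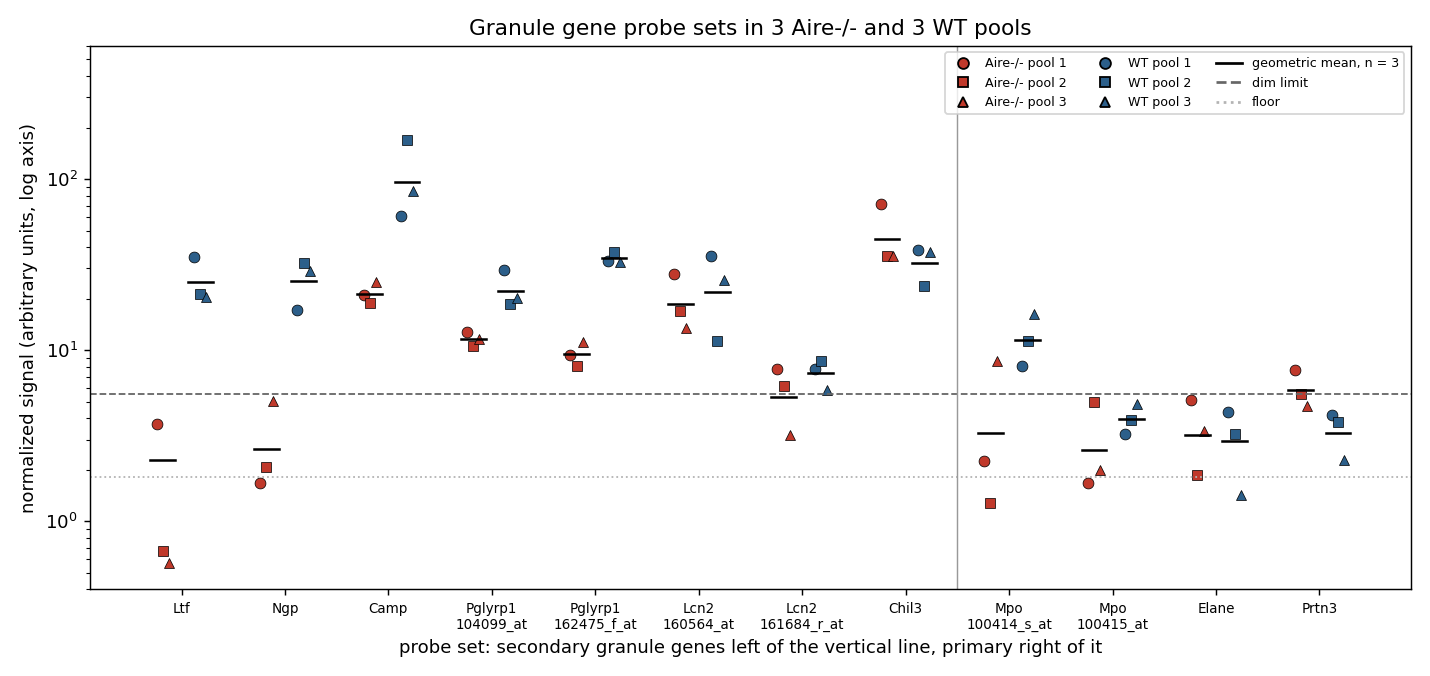
Normalized signal (arbitrary units, log axis) of the 12 granule gene probe sets on 3 Aire-/- arrays (red) and 3 WT arrays (blue), with the geometric mean of each group as a bar, the dim limit of 5.53 dashed and the floor of 1.8 dotted. Ltf, Ngp, Camp and both Pglyrp1 probe sets lay lower on every Aire-/- array than on any WT array, while most primary granule signals stayed near or under the dim limit in both genotypes.

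The primary granule genes gave little signal in either genotype. Mpo encodes myeloperoxidase, the enzyme that makes hypochlorous acid. Its probe set 100414_s_at read 2.25, 1.27 and 8.6 on the Aire-/- arrays against 8.03, 11.3 and 16.2 on the WT arrays. The Aire-/- array 3 value lay above that of WT array 1, so the groups overlapped, although within each of the 3 replicate numbers the Aire-/- array was the lower. Mpo is counted as overlapping below, and the log2 difference of -1.80 was -2.49 without Aire-/- array 3 and -1.36 without Aire-/- array 2. The other Mpo probe set, 100415_at, read 1.68, 5 and 1.98 on the Aire-/- arrays against 3.25, 3.88 and 4.85 on the WT arrays. All 6 values were dim, so no fold is given, and the difference on 100414_s_at could not be checked here.

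Elane and Prtn3 encode neutrophil elastase and proteinase 3, serine proteases of the primary granule whose genes lie side by side on chromosome 10, with 0 protein-coding genes between them. Elane read 5.1, 1.87 and 3.38 on the Aire-/- arrays against 4.35, 3.25 and 1.42 on the WT arrays. All of these values were dim and the groups overlapped. Prtn3 read 7.62, 5.53 and 4.73 on the Aire-/- arrays against 4.15, 3.78 and 2.27 on the WT arrays. The groups lay apart with Aire-/- higher, at least 1.06-fold, but 1 array alone exceeded the dim limit. Aire also lies on chromosome 10, with 50 protein-coding genes between it and Prtn3.

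Of the 12 probe sets, 5 lay lower on all Aire-/- arrays than on any WT array, 1 lay higher, and the groups of the other 6 overlapped. Among all 12422 probe sets, 7.86% lay apart with Aire-/- lower and 8.02% with Aire-/- higher. All 8 secondary granule probe sets and 1 of the 4 primary ones passed the filter on dim signals (above the dim limit on at least 3 of 6 arrays), and those of Ltf and Ngp passed it through the WT arrays alone. In the limma fit over the 7768 probe sets that passed, 4 of the 12, those of Ltf, Ngp and Camp and Pglyrp1 162475_f_at, were lower at an adjusted p under 0.05 and 0 were higher, against 1.38% lower and 0.348% higher over all tested. Since this contrast was known when the genes were chosen, nothing is read from that count. With arrays paired by number, the same 4 were lower and again 0 were higher, where 3.37% of all tested were lower and 1.93% higher.

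With 1 array left out, Camp was past the threshold only without WT array 1, and Pglyrp1 162475_f_at only without Aire-/- array 1 or Aire-/- array 3. Ltf and Ngp were past it without any 1 of the Aire-/- arrays, and not without any 1 of the WT arrays. They passed the filter on dim signals through the WT arrays alone, so leaving out a WT array takes them below it. The log2 differences of these 4 probe sets each stayed on the same side of 0, and Camp ranged from -2.50 to -1.78. Since the genes were chosen on this contrast, nothing is read from these calls.

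**Figure D2:**
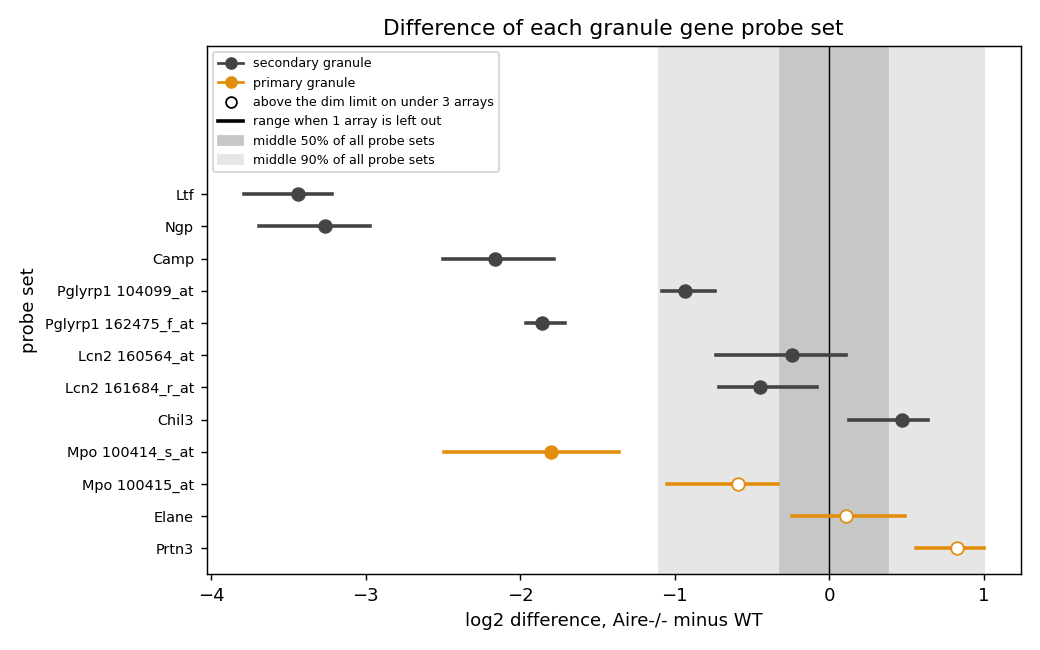
Log2 difference in signal, Aire-/- minus WT, of each granule gene probe set (points), with the range of values when 1 array is left out (bars), over the middle 50% (dark band, -0.32 to 0.38) and middle 90% (light band, -1.1 to 1.0) of all 12422 probe sets. Ltf, Ngp, Camp and Pglyrp1 162475_f_at lie left of the light band, as does Mpo 100414_s_at, whose groups overlapped, and open points passed the dim limit on fewer than 3 arrays.

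The classes were then compared as a whole. The median log2 difference was -1.40 over the 8 secondary granule probe sets, of which 7 lay below 0, and -0.24 over the 4 primary ones, of which 2 lay below 0. Over all 12422 probe sets the median was 0.00, and over those tested it was 0.05. The primary median rested on dim signals and was 0.00 when the floor was raised to the dim limit and -0.47 when arrays were scaled to a common trimmed mean in place of quantile normalization.

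Averaged within each array on the log2 scale, the secondary granule probe sets gave 3.49, 3.05 and 3.18 on the Aire-/- arrays against 4.81, 4.68 and 4.68 on the WT arrays (3.24 ± 0.23 and 4.72 ± 0.07, SD, n = 3 each). The primary ones gave 1.82, 1.63 and 2.02 on the Aire-/- arrays against 2.22, 2.27 and 2.08 on the WT arrays (1.83 ± 0.19 and 2.19 ± 0.1, SD, n = 3 each). In both classes the highest Aire-/- array lay below the lowest WT array, but in the primary class only by 2.02 against 2.08. Of the 4 primary probe sets, 1 passed the filter on dim signals. Dim signals cannot show a large gap, so the sizes of the gaps cannot be compared between the classes. The secondary minus primary value was 1.67, 1.42 and 1.16 on the Aire-/- arrays against 2.59, 2.41 and 2.6 on the WT arrays. Its own level has no meaning, since probe sets differ in sensitivity, but its difference between genotypes was -1.12 on the log2 scale. The floor shortens differences between dim signals. With the floor raised to the dim limit, which flattens the primary class further and does not correct for this, the difference between genotypes was -0.99.

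**Figure D3:**
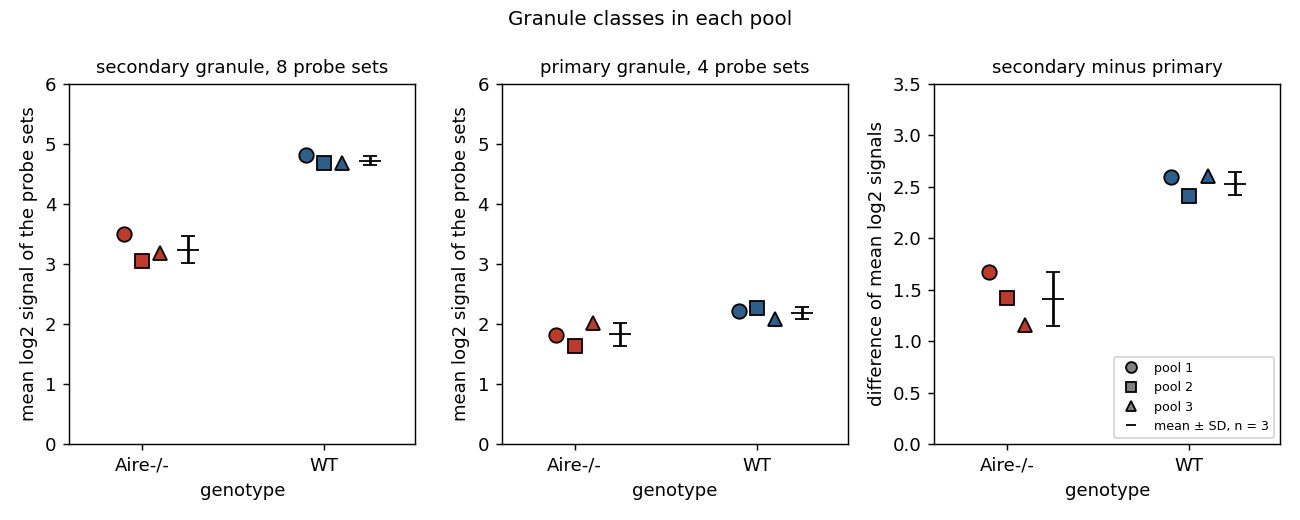
Mean log2 signal of the 8 secondary (left) and 4 primary granule probe sets (middle) and their difference (right) in each pool, Aire-/- in red and WT in blue, with mean ± SD over 3 pools. The secondary class read 3.05 to 3.49 on Aire-/- arrays and 4.68 to 4.81 on WT arrays, and the primary class 1.63 to 2.02 on Aire-/- arrays and 2.08 to 2.27 on WT arrays.

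The WT pools did not rank alike across the secondary granule genes. WT array 1 held the highest values of Ltf, of Pglyrp1 104099_at and of Lcn2 160564_at, and the lowest of Ngp and Camp. WT array 2 held the highest values of Ngp, Camp and Pglyrp1 162475_f_at and the lowest of Lcn2 160564_at and Chil3. On the Aire-/- side, Ngp and Camp were highest on array 3, and Ltf, Lcn2 and Chil3 on array 1. Without both arrays numbered 2, the log2 differences were -3.36 for Ltf, -2.89 for Ngp, and -1.68 and -1.0 for the Pglyrp1 probe sets.

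The genes whose signal followed the mean profile of the secondary granule probe sets most closely over the 6 arrays, by Pearson correlation among 6978 probe sets, were Fam171a1 (r = 0.99), Mmp13 (0.984), Vnn1 (0.983), Iapp (0.982), Igtp (0.978) and Adk (0.977). The arrays fall into 2 genotypes, so such a correlation mainly ranks genes that differ between them. Vnn1, which encodes a pantetheinase, read 21.1, 8.23 and 5.33 on the Aire-/- arrays against 74.5, 30.8 and 36 on the WT arrays. Iapp, the islet amyloid peptide, read 22.3, 9.35 and 7.83 on the Aire-/- arrays against 75.4, 27.5 and 51.2 on the WT arrays. Neither passed the threshold (adjusted p = 0.0679 and 0.067), and both did with the block (0.00313 and 0.00484).

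Camp, Ngp and Ltf lie on chromosome 9, with 8 protein-coding genes between Camp and Ngp and 20 between Ngp and Ltf in the RefSeq annotation. Values of their nearest neighbours follow, none of which passed without the block. Ccrl2, a chemoattractant receptor-like gene next to Ltf, read 14.7 in Aire-/- and 25.1 in WT cells (adjusted p = 0.281). Nme6, next to Camp, read 7.95 in Aire-/- and 11.7 in WT cells (adjusted p = 0.57), and Ptpn23, next to Ngp, 7.58 in Aire-/- and 6.69 in WT cells (adjusted p = 0.951). Smarcc1, a chromatin remodelling subunit gene between Camp and Ngp, read 34 in Aire-/- and 85.1 in WT cells (adjusted p = 0.178, or 0.0373 with the block). Near Ngp, with 1 gene between, both probe sets of the kinesin gene Kif9 had the opposite direction, with log2 differences of 2.37 and 2.40 (adjusted p = 0.0571 and 0.0574, or 0.0278 and 0.0245 with the block).

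Other genes of neutrophils gave mixed values. Beside the counts of each list below stand those over all 7768 tested probe sets. There 1.38% were lower and 0.348% higher in limma, or 3.37% and 1.93% with the block. An unadjusted p under 0.05 was met by 607 on the lower and 500 on the higher side. The 8 tested probe sets for other primary granule genes were those of Ctsc, Gusb, Hexa, Cd63, Serpinb1a and Srgn. Of these, 0 passed in limma, with or without the block, or met an unadjusted p under 0.05, and their median log2 difference was 0.30. Ctsg, cathepsin G, was dim on all 6 arrays. Cst7 was below the filter, with all Aire-/- values dim and its groups overlapping (log2 difference -0.94). Neither was tested, so the count and the median say nothing of them. Of 12 tested probe sets for other secondary and tertiary granule genes, 0 passed in limma, 2 had an unadjusted p under 0.05, both lower, and 1 was lower with the block. Hp, haptoglobin, was that one, with 17.5, 11.7 and 9.87 on the Aire-/- arrays against 74.9, 37.2 and 29.9 on the WT arrays (log2 difference -1.79, adjusted p = 0.0574, or 0.00545 with the block). Orm1, an acute phase protein, read 7.57 in Aire-/- and 14.5 in WT cells (adjusted p = 0.313). Lyz2, the lysozyme of myeloid cells, read 120 in Aire-/- and 122 in WT cells (adjusted p = 0.982), and Mmp9, a gelatinase of the tertiary granule, read 12.9 in Aire-/- and 27.7 in WT cells with its groups overlapping (adjusted p = 0.351). Mmp8, the neutrophil collagenase, and Itgam, the integrin CD11b, were dim on all 6 arrays.

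Of 16 tested probe sets for neutrophil surface, cytosol and oxidase genes, 3 fell and 1 rose, or 6 and 2 with the block. Over all tested, 1.38% fell and 0.348% rose, or 3.37% and 1.93% with the block. The median log2 difference of the 16 was -0.22. S100a8 and S100a9 encode the subunits of calprotectin, a main cytosolic protein of neutrophils that squamous epithelia also make. S100a8 read 16.9, 39.6 and 46.3 on the Aire-/- arrays against 85.5, 443 and 234 on the WT arrays (log2 difference -2.72, SE 0.57, adjusted p = 0.0419). S100a9 read 13.6, 6.38 and 5.9 on the Aire-/- arrays against 27.9, 137 and 60.8 on the WT arrays (log2 difference -2.94, SE 0.55, adjusted p = 0.0276). For both, as for Camp, WT array 2 was the highest of the 6. Ly6g, a surface antigen of granulocytes, read 0.8, 0.817 and 1.05 on the Aire-/- arrays against 50.9, 12.8 and 28.9 on the WT arrays, at least 4.81-fold lower in Aire-/- cells (adjusted p = 0.00586). It passed the filter through the WT arrays alone. S100a6, a calcium-binding protein of many cell types, rose, with 548 in Aire-/- and 186 in WT cells (log2 difference 1.56, SE 0.25, adjusted p = 0.0151). Groups also lay apart on the higher side for Fcer1g 162181_f_at (log2 difference 2.15, adjusted p = 0.112, or 0.0377 with the block). It passed the filter through the Aire-/- arrays alone. The other Fcer1g probe set, 160692_at, was below the filter and its groups overlapped (log2 difference 0.4). Ncf4 (0.65, adjusted p = 0.353) and Il1r2 102658_at (0.56, adjusted p = 0.447) lay apart on the higher side as well. On the lower side Wfdc21 lay apart too (-1.41, adjusted p = 0.136, or 0.0481 with the block). With single arrays left out and the filter of 6 arrays kept, S100a8 lost its call in 5 of 6 cases (all but WT array 1), S100a9 in 4 (all but WT array 1 and Aire-/- array 1), Ly6g in 1 (WT array 3) and S100a6 in 2 (WT array 3 and Aire-/- array 2).

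Receptors of neutrophils did not pass the threshold or were dim. Csf3r, the receptor of the granulocyte growth factor, read 24.8 in Aire-/- and 15.1 in WT cells on its bright probe set (adjusted p = 0.457), and Cxcr2 and Fpr2, chemoattractant receptors, were dim on all 6 arrays. The summed signal of this list ranged from 1050 to 1610 on the Aire-/- arrays and from 1220 to 2120 on the WT arrays, so the sums overlapped, although the Aire-/- sum was the lower within each of the 3 replicate numbers. Its 24 probe sets included 5 that were dim on all 6 arrays. The sum followed the brightest ones, among them Anxa1 93038_f_at, at 107 to 422 on Aire-/- and 229 to 835 on WT arrays. Its log2 difference was -1.37 (adjusted p = 0.293, or 0.0123 with the block). On Anxa1 161703_f_at it was -1.49 (adjusted p = 0.235, or 0.0107 with the block), and on 93037_i_at -0.54 (adjusted p = 0.799, or 0.471 with the block). The groups overlapped on each of these Anxa1 probe sets.

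Among 19 tested probe sets of granulocyte regulators and growth factors, 1 fell and 0 rose, while an unadjusted p under 0.05 was met by 4 on the lower and 2 on the higher side. The one was Cxcl1 95349_g_at, a chemokine that draws neutrophils, with 288 in Aire-/- and 614 in WT cells (log2 difference -1.09, adjusted p = 0.0416, but 0.257 on the values as deposited). That call was lost whichever single array was left out, and the other Cxcl1 probe set read 209 in Aire-/- and 398 in WT cells (adjusted p = 0.273). Cxcl2, a related chemokine, read 146 in Aire-/- and 255 in WT cells (adjusted p = 0.191). Cxcl12, the chemokine that holds granulocyte precursors in the marrow, read 4.53 in Aire-/- and 11.6 in WT cells on 160511_at with groups overlapping (adjusted p = 0.275). Its other probe sets differed less, with log2 differences of -0.27 on 162234_f_at (adjusted p = 0.887) and -0.06 on 100112_at, which was below the filter. Of the transcription factors, Irf8, which favours monocytes over granulocytes, read 355 in Aire-/- and 198 in WT cells with groups apart (log2 difference 0.84, adjusted p = 0.251), Cebpa 31.2 in Aire-/- and 51.6 in WT cells (adjusted p = 0.377) and Spi1, which encodes PU.1, 11.3 in Aire-/- and 13.3 in WT cells (adjusted p = 0.849).

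Markers of other blood cells were set beside these values. Of 12 tested pan-leukocyte probe sets, 0 passed in limma or with the block, 3 were higher at an unadjusted p under 0.05, and the summed signal was 1360 to 2030 on the Aire-/- arrays and 1190 to 2250 on the WT arrays. Ptprc, which encodes CD45, read 8.62 in Aire-/- and 5.83 in WT cells on 1 probe set (adjusted p = 0.586) and was dim on all 6 arrays on the others. Of 13 tested monocyte and macrophage probe sets, 0 passed in limma, an unadjusted p under 0.05 was met by 2 on each side, and the sums were 924 to 1330 on Aire-/- and 698 to 1030 on WT arrays. In that list Cd68 read 21.4 in Aire-/- and 6.85 in WT cells, and Cd14 45.9 in Aire-/- and 148 in WT cells (adjusted p = 0.067 and 0.064, or 0.0239 and 0.0055 with the block). Of 8 tested probe sets for eosinophils, mast cells and basophils, 1 fell: Mcpt2, a mast cell protease, at least 2.53-fold (adjusted p = 0.0173). It passed the filter through the WT arrays alone and lost its call without any 1 of them even with the filter of 6 arrays kept. Prg2, the eosinophil major basic protein, had the opposite direction, with 47.9 in Aire-/- and 17.7 in WT cells (adjusted p = 0.0882, or 0.0245 with the block). In the lists of dendritic cells (8 tested), T cells and thymocytes (12), B cells (11), and red cells and platelets (7), 0 passed in limma. With the block 2, 0, 1 and 0 were lower and 1, 0, 2 and 1 higher, in that order of lists. An unadjusted p under 0.05 was met there by 2, 0, 1 and 0 on the lower and 2, 0, 4 and 1 on the higher side. Of 18 tested probe sets of medullary thymic epithelium 0 passed, 1 (Epcam) was lower with the block, 1 was lower and 4 were higher at an unadjusted p under 0.05, and the sums were 5500 to 6180 on Aire-/- and 4620 to 5070 on WT arrays. Such sums follow the brightest probe sets of a list, so they do not measure cell numbers. H2-Aa alone read 2330 on each Aire-/- array and 1860 to 2040 on WT arrays (adjusted p = 0.613). Quantile normalization gives probe sets of equal rank the same value on every array, so the repeated 2330 reflects rank and not equal measured signals. In the monocyte list Ctss read 740 to 1080 on Aire-/- and 358 to 682 on WT arrays. Ly6g, S100a8 and S100a9 were lower, as were part of the secondary granule signals. The list of neutrophil surface, cytosol and oxidase genes, with 16 tested probe sets, held 4 apart on the lower side and 4 apart on the higher side. Of all 12422 probe sets, 7.86% lay apart on the lower and 8.02% on the higher side. That base includes probe sets below the filter, so the count and the shares are not on the same base, and nothing is read from them. The part of blood cell RNA in the secondary granule signals was not tested.

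**Figure D4:**
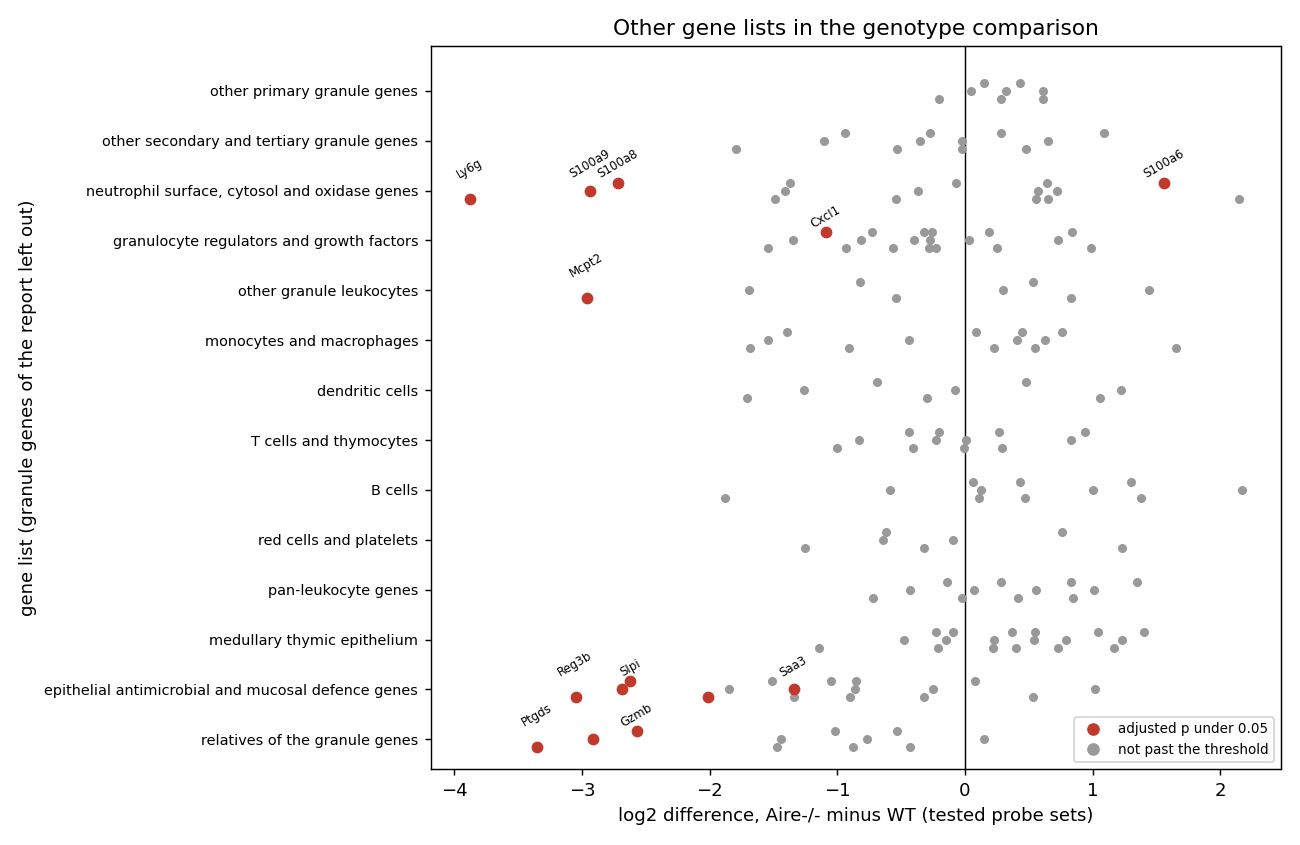
Log2 difference, Aire-/- minus WT, of every tested probe set in 14 gene lists that exclude the 9 granule genes, with red points for adjusted p under 0.05 in limma. Red points in the neutrophil lists are S100a8, S100a9, Ly6g and Cxcl1 on the lower side and S100a6 on the higher side, while none of the other primary, secondary or tertiary granule genes is red.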

How the data were processed

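Per the labels, RNA went through 2 rounds of amplification before it was hybridised. The files deposited by the authors give 1 linear intensity a probe set and array, a signal to 1 decimal. How the scanner values were corrected and scaled, and with which software, were not given in the sources used here, and no detection calls were used. Of 12488 probe sets, 66 controls were left out. Of the 12422 used, 10833 named 1 gene, 396 several and 1193 none, and 10817 matched a gene of GRCm38.p6 by Entrez identifier, with 0 symbols to update. That assembly served for names, neighbours and promoter windows.

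Quantile normalization of the 6 arrays was followed by a floor at the 20th percentile of all signals (1.8) and log2. The filter kept the 7768 probe sets whose signal exceeded the 40th percentile (5.53) on 3 or more arrays. Probe sets of a gene were kept apart. They were averaged on the log2 scale only within a granule class, to compare the genotypes. Group values are geometric means, with SD and SE in log2 units. The genotypes were compared in R 4.3.3 by limma 3.58.1 (lmFit, then eBayes with trend, 2-sided), with Benjamini-Hochberg adjustment over all tested probe sets and a threshold of 0.05. The number of arrays limits the precision, and p-values measure the spread between pools, amplification and hybridisation included. The fit was tested on simulated data. Python 3.11.15 with matplotlib 3.10.9 drew the figures.

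To check whether replicate numbers pair the arrays, each array's deviations from its group mean were correlated across genotypes. The correlation was 0.372, 0.198 and 0.193 where the number was shared, and -0.253 to 0.0676 where it was not. All 3 shared-number values exceeded 0.1, so a fit blocked on the replicate number was run as an alternative. The main fit left the arrays unpaired, and only limma results given with the block or as paired used the pairing. Deviations from a mean of 3 arrays depend on one another, so these correlations are weak evidence of pairing. The meaning of a shared number is not explained by the labels. Alternatives were other scalings, a higher floor, no filter, no variance trend, array weights, 1 probe set a gene, the block, and leaving out arrays. Leaving out arrays with the probe sets of the 6-array filter kept was added after the data were seen.

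The granule genes and all gene lists were chosen with earlier results of these data known. Genes named are the granule genes, up to 4 genes of each list with the smallest p and all that passed, the 6 most like the secondary granule profile, and near neighbours. Cebpa, Lyz2, Mmp8, Mmp9, Itgam, Csf3r, Cxcr2, Fpr2, Ctsg, Ptprc, Spi1, Krt5 and Krt14 are given as defining markers, some after their values were seen. Wfdc21, Fcer1g, Ncf4 and Il1r2 are given because their groups lay apart, and Anxa1, Ctss and H2-Aa because they were bright. Ltbr and Nos2 are given as members of their list on the higher side. Gusb and Serpinb1a are given to complete the tested genes of their list, and Cst7 as a member of it below the filter.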

Additional observations from a re-analysis of the deposited data

How the results depend on the processing

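The median log2 difference of the secondary granule probe sets stayed between -1.52 and -1.28 under every alternative run, and the secondary minus primary difference between -1.24 and -0.96. The primary median of -0.24 was -0.47 with arrays scaled to the median trimmed mean and 0.00 with the floor at the 40th percentile, which raises most of these signals to one value, and -0.34 to -0.16 with 1 array left out. That floor also shortened the log2 differences of Ltf to -2.17, Ngp to -2.20, Mpo 100414_s_at to -0.83 and Prtn3 to 0.15. The other 140 values of single granule probe sets moved by less than the spread between replicates. No filter, no variance trend and 1 probe set a gene do not enter these values. The counts of probe sets past the threshold, 107 lower and 27 higher, were 262 and 150 with the replicate block that pairs the arrays, 166 and 72 with array weights, and 10 and 6 without the filter. On the values as deposited 71 were higher. Without both arrays numbered 2 the counts were 0 and 0 in limma, while an unadjusted p under 0.05 was met by 315 on the lower and 266 on the higher side. With 1 array left out and the filter set again, which drops probe sets bright on 3 arrays alone, they were 2 to 76 lower and 0 to 9 higher, the lowest without WT array 3, where 469 on the lower and 555 on the higher side met an unadjusted p under 0.05. With the filter of 6 arrays kept, an alternative chosen after seeing the data, 78, 48 and 56 were lower and 11, 2 and 11 higher without Aire-/- array 1, 2 or 3, and 55, 40 and 25 were lower and 16, 11 and 5 higher without WT array 1, 2 or 3. Over the other gene lists, 14 probe sets passed, 34 with the block, 1 to 11 with 1 array left out, and with that filter kept 12, 6 and 7 without Aire-/- array 1, 2 or 3 and 10, 5 and 3 without WT array 1, 2 or 3. With the block the same 4 granule gene probe sets were past the threshold, but nothing is read from this, since the genes were chosen on this contrast. Signals near or under the dim limit bound what can be seen of Mpo, Elane and Prtn3.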

Other observations

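Of 17 tested probe sets of epithelial antimicrobial and mucosal defence genes, 5 fell and 0 rose in limma, with 9 lower at an unadjusted p under 0.05 and 8 lower with the block, and their median log2 difference was -1.05. The list was chosen with earlier results known, and over all tested probe sets 1.38% fell, or 3.37% with the block. At an unadjusted p under 0.05, 607 of all 7768 tested were lower. Ltbr, the lymphotoxin beta receptor, and Nos2, the inducible nitric oxide synthase, had log2 differences of 0.53 and 0.08 (adjusted p = 0.614 and 0.954). Slpi, an inhibitor of neutrophil elastase made by mucosal epithelia, fell on 2 of its 4 probe sets, with 17.2, 20.5 and 16.8 on the Aire-/- arrays against 49.1, 131 and 60.8 on the WT arrays for 161650_at (log2 difference -2.01, SE 0.39, adjusted p = 0.0329). The other 2 differed by 1.02 and -0.25 with overlapping groups (adjusted p = 0.596 and 0.86). Saa3, a serum amyloid A protein, read 375 in Aire-/- and 952 in WT cells (log2 difference -1.34, adjusted p = 0.0329, but 0.115 on the values as deposited). With single arrays left out and the filter of 6 arrays kept, Saa3 lost its call in each case and Slpi 161650_at in all but that of WT array 1. Reg3b, a bactericidal lectin, fell on both probe sets, with log2 differences of -3.05 and -2.69 (adjusted p = 0.00403 and 0.00722), and with that filter kept both calls held whichever array was left out, while 96009_s_at lost its call without WT array 3 when the filter was set again. The call of Slpi 92858_at was lost without any 1 of the WT arrays or Aire-/- array 2.

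Relatives of the granule genes by family were read from the same arrays. Of 11 tested probe sets, 3 fell and 0 rose, or 4 and 0 with the block, with 7 lower at an unadjusted p under 0.05, and the median log2 difference was -1.02. Over all 7768 tested, 1.38% fell, or 3.37% with the block, and 607 were lower at an unadjusted p under 0.05. This list too was chosen with earlier results known. Ptgds, a lipocalin like Lcn2, fell on 2 of 3 probe sets, with 8.07, 9.15 and 3.08 on the Aire-/- arrays against 30.2, 82.2 and 38.9 on the WT arrays for 92545_f_at (log2 difference -2.91, SE 0.5, adjusted p = 0.0173). That call was lost without WT array 2, WT array 3 or Aire-/- array 3, while 92546_r_at (adjusted p = 0.00586), which passed the filter through the WT arrays alone, kept its call in each case with that filter kept. Gzmb, a serine protease like Elane, was at least 2.27-fold lower in Aire-/- cells (adjusted p = 0.0329), passing the filter through the WT arrays alone, a call lost whichever array was left out. Chil1, a chitinase-like protein related to Chil3, read 26.8 in Aire-/- and 74.3 in WT cells with overlapping groups (adjusted p = 0.226). Chia1, the chitinase gene next to Chil3, read 4.87 in Aire-/- and 8.94 in WT cells (adjusted p = 0.389).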
